A study of Mus musculus with 4 samples.

Results

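The lysosome, V-ATPase and autophagy genes were 58 of the 24343 genes counted, 381 of which were single rows without a symbol. They were the 24 symbols beginning with Atp6v and 34 further symbols listed by name, and each gene's deposited transcript rows were summed. Their transcripts were measured by RNA-seq in group 3 innate lymphoid cells (ILC3s), tissue lymphocytes that lack rearranged antigen receptors and are a main source of IL-22. All 4 libraries came from mice labelled IL23R-GFP/WT, in which GFP reports the IL-23 receptor gene, and the cells were sorted as lacking lineage markers and carrying CD127 and GFP. In 2 libraries the cells were kept in medium, and in the other 2 they were stimulated with TL1A, a cytokine of the TNF superfamily whose receptor is DR3. The sources used here do not give dose, duration, animal age or tissue of origin. They also do not say if the libraries of a group are separate animals or cultures, so each p-value reflects only the spread among these libraries, which can be technical in origin.

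Lysosomes are the acidic compartments in which cells break down proteins, glycans and lipids. Their acid comes from the V-ATPase, a rotary pump whose cytosolic V1 sector hydrolyses ATP and whose membrane V0 sector passes protons. Autophagy delivers cytoplasm to lysosomes in vesicles marked by lipid-linked proteins of the LC3 and GABARAP family. The transcription factors TFEB and TFE3 bind E-box sequences near many lysosomal genes and can raise lysosomal and autophagy genes together.

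The libraries held 11495636 to 12605164 assigned reads. The 58 genes took 0.908% and 0.926% of them in medium against 0.783% and 0.791% with TL1A. All 12 fixed ILC3 markers had reads, Kit only 1, in medium replicate 2. Their summed levels were 9483 and 9985 CPM in medium against 13645 and 13721 CPM with TL1A. CPM are counts scaled to a common library total, here with trimmed mean of M-values (TMM) factors. Of the 11 ILC3 markers tested, 3 rose and 6 fell. The rise of the sum rests on 1 of the 3, without which the sum is lower with TL1A. Il7r, the largest in medium, fell from 3552 and 3661 CPM to 1209 and 1191 CPM. Lysosomal genes are also abundant in myeloid cells. Of 15 myeloid markers, 11 were tested, 2 rose, 4 fell and 5 did not pass, Itgam had no read in any library, and 1, Cd68, is also in a pathway list below. Their summed level was 1656 and 1838 CPM in medium against 773 and 761 CPM with TL1A. Most of this was Fcer1g, a signalling adaptor that innate lymphocytes also carry, and without it the sums were 95.9 and 118 CPM against 70.7 and 82.8 CPM. Of 6 tested ILC1 and NK cell markers 2 rose and 2 fell, with Eomes at 0 reads. Their sum was 29.5 and 25.9 CPM in medium against 469 and 443 CPM with TL1A, and without Ncr1, a receptor that ILC3s also carry, 14.5 and 9.89 CPM against 27.5 and 21 CPM. Among B cell markers, Blk had 117 and 119 CPM in medium against 735 and 679 CPM with TL1A and Cd79b 35.9 and 47.2 CPM against 114 and 97.7 CPM, both higher, while Ms4a1 and Pax5 had no read and Cd79a at most 0.637 CPM. Summed T cell markers were at 142 and 127 CPM against 107 and 122 CPM (0 of 5 tested rose, 1 fell, Cd8a at 0 reads). Most of this was Lat, at 138 and 116 CPM against 99.9 and 116 CPM. ILC2 markers were at 217 and 233 CPM against 304.5 and 279 CPM (1 of 7 rose, 2 fell). Gata3, also an ILC3 marker, gave 153 and 158 CPM of this in medium and did not pass. The gene that rose was Klrg1, from 27.4 and 27.9 CPM to 138 and 131 CPM, while Il1rl1 and Il17rb fell. Epithelial and stromal markers summed to at most 15.4 CPM in a library (0 of 3 rose, 1 fell) and red cell markers to at most 0.159 CPM. Kit, Itgam, Eomes and Cd8a each have 2 deposited rows, and reads shared by rows were not counted. Their counts of 0 or 1 therefore do not show that these genes were absent. Some marker calls had a direction set by the filter. Cd28 (T cell), Klrk1 (NK cell), Mertk (myeloid) and Krt18 (epithelial) reached the minimum count of 10 in medium only, so they could be called only lower. Gzmb, an NK cell marker called higher, passed the filter through TL1A, with 11 and 3 reads in medium against 117 and 134. The part of these markers in the results was not tested. In bulk RNA, fewer cells of a type and less RNA per cell cannot be told apart.

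The genes did not move in 1 direction with TL1A, and the cathepsins, the V-ATPase and the LC3 family each held both higher and lower calls. In the LC3 family the higher call was Gabarap alone, and its sign turned with total-count scaling. Of the 58, 43 had enough reads to be tested. Among these, 8 rose (18.6% of them, against 20.6% of all 9852 genes tested), 13 fell (30.2%, against 21.7%) and 22 did not pass (edgeR quasi-likelihood test, adjusted p under 0.05). In either direction 21 of the 43 passed, against 42.3% of all genes. Among changes of at least 2-fold, 1 gene, Ctsz, was higher (8.77% of all genes were) and 3, Ctsa, Ctsl and Hexa, were lower (10.6% of all genes). Ctsa reached the minimum count in the medium libraries only, so it could be called in no direction but lower. The median log2 fold change was -0.19 for the 43 genes and -0.03 for all genes tested. The libraries of the groups did not overlap for 10 genes that were higher and 21 that were lower, and the same held for 34.7% and 37.6% of all genes tested, or 72.2% in either direction.

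The scale on which a modest change is read mattered for this set. TMM factors were 1.09 and 1.09 for medium and 0.908 and 0.921 for TL1A. With scaling by total reads alone, chosen after the data were seen, the median of all genes tested shifted by -0.26 on the log2 scale. On that scale 6 of the 43 genes rose and 20 fell, against 13.3% and 35.3% of all genes. The 2 higher calls lost were Atp6v0e and Gabarap, and the 7 lower calls gained were Atp6v0d1, Atp6v1c1, Atp6v1f, Atp6v1g2, Gusb, Mcoln1 and Atg5. Ratios of 2 genes within a library do not depend on this choice and are given below for the main contrasts. Of the 21 genes that passed, 13 kept their call and direction under every alternative in which they were tested: 6 that rose (Ctsz, Ctsd, Ctsc, Atp6v1a, Atp6v0d2 and Sqstm1) and 7 that fell (Atp6v1h, Ctsb, Ctsl, Hexa, Map1lc3b, Gabarapl1 and Ctsa, whose direction the filter fixed).

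**Figure D1:**
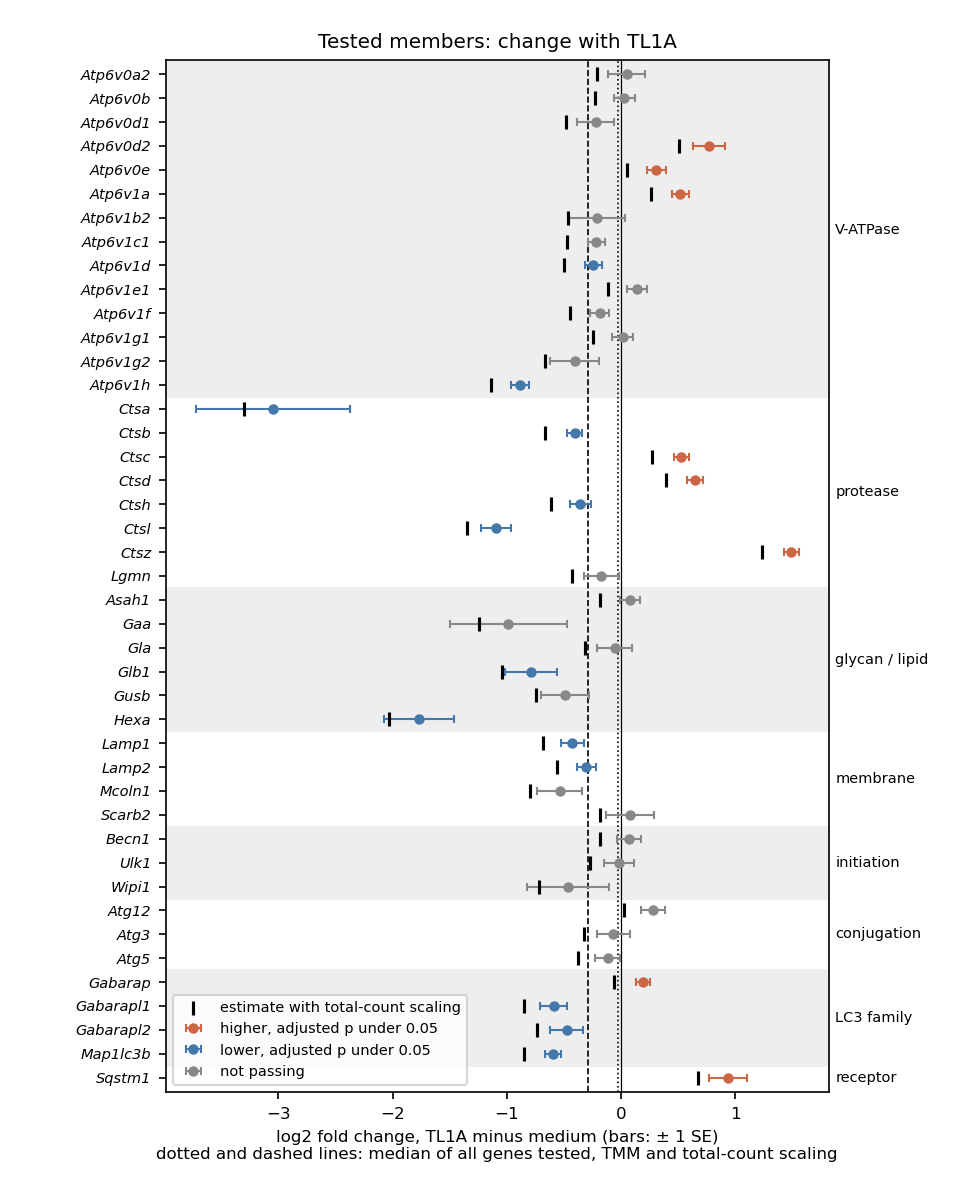
Log2 fold change of the 43 tested genes, TL1A minus medium (x axis), by gene and role (y axis). Points and bars are the TMM-scaled estimate ± 1 SE and the black ticks the estimate with total-count scaling, which lies further left for each gene; the dotted and dashed lines are the medians of all genes tested, -0.03 and -0.29. Each of the V-ATPase, protease and LC3 family groups holds genes on both sides of the dotted line.

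The 2 transcription factors could not be followed. Tfe3 had no read in any library and Tfeb had 1 read, in medium replicate 1. A count of 0 allows up to 0.238 to 0.261 CPM in a library (3 counts of its assigned reads, here without TMM factors, counting error only). Both genes have several deposited rows, 3 for Tfeb and 6 for Tfe3, and reads in sequence shared by rows were not counted. Of the 50-base stretches of the matched GENCODE transcripts, only 10.8% to 12.6% for the Tfeb rows and 0% to 6% for the Tfe3 rows were in no other row of the gene. These near-zero counts therefore do not measure the level of either gene. Mitf, the gene of a related factor, had 0 to 2 reads in each library.

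The sequence that these factors recognise was frequent near the start sites of the set. Promoters (250 bases before to 50 after the start, RefSeq, GRCm38.p6, matched by symbol) were at hand for 45 of the 58 genes. The E-box CACGTG, which reads the same on both strands, stood in those of 16 genes (35.6%). It stood in 8.09% of all 27025 genes with a promoter and in 11.6% of the 7757 tested genes with one. Among the other genes of these pathways listed below, it stood in 20%, and among the other lysosomal enzymes in 16.7%. The longer TCACGTG, searched on both strands and always containing an E-box, stood in 14 of the 45 (31.1%). It stood in 4.29% of all genes, 7.12% of tested genes and 17.2% of the other pathway genes. By role, the E-box was found for 9 of 16 lysosomal enzyme and membrane genes, 4 of 17 V-ATPase subunits and 3 of 10 autophagy genes. Such a match is a description of these letters and not a measured binding site.

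Genes with an E-box went in each direction. Among genes tested, it stood in the promoters of 3 of 7 that rose, 4 of 10 that fell and 8 of 15 that did not pass. The windows below, 15 bases to each side, show the E-box in capitals for 2 genes that rose (Atp6v1a and Ctsd), 1 that fell (Glb1) and 3 that did not pass (Atg3, Gla and Mcoln1), 5′ to 3′ on the strand of the gene in GRCm38.p6. All 6 also match the longer TCACGTG.
Atp6v1a, minus strand of chr16:44139370-44139405: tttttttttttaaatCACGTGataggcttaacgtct
Ctsd, minus strand of chr7:142387905-142387940: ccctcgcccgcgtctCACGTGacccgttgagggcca
Glb1, plus strand of chr9:114401015-114401050: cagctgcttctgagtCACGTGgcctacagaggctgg
Atg3, plus strand of chr16:45158743-45158778: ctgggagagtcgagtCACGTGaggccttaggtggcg
Gla, minus strand of chrX:134601179-134601214: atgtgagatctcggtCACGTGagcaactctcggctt
Mcoln1, plus strand of chr8:3500459-3500494: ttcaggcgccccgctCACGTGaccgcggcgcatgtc

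Lamp1, the gene of an abundant lysosomal membrane glycoprotein, had 4 E-boxes, the largest number among these promoters. They begin at positions -61, -45, -28 and -15 from the start. Its 250 bases before the start are shown with all 4 in capitals, because no other promoter of the set held as many and because the gene fell.
Lamp1, plus strand of chr8:13158911-13159160: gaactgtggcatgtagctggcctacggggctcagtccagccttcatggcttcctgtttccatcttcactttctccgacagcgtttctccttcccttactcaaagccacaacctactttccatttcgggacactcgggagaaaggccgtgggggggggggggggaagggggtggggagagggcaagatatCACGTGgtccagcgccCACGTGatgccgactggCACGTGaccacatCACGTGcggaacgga

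**Figure D2:**
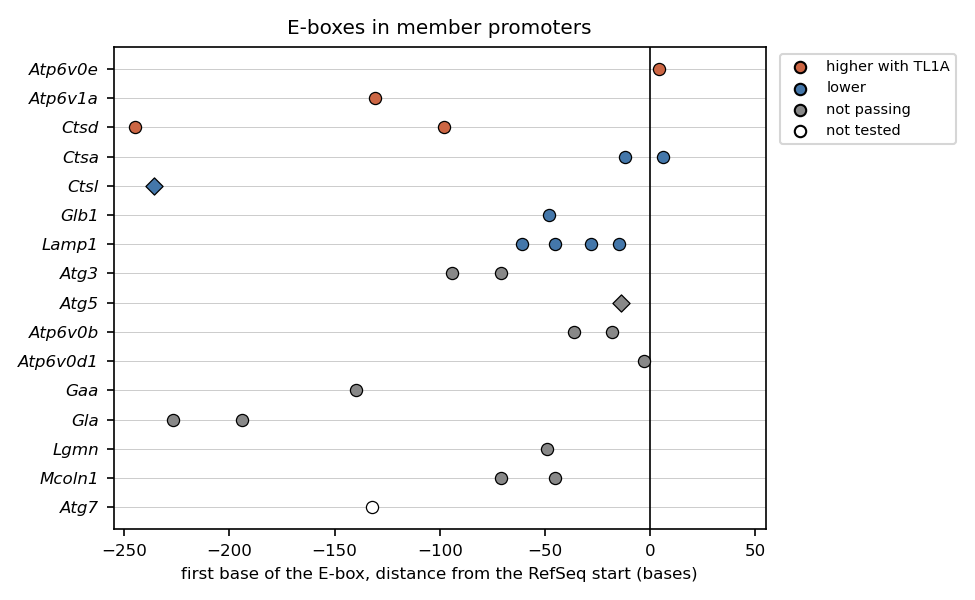
E-boxes in the promoters of 16 genes (y axis) by distance of their first base from the RefSeq start (x axis, bases). Colour gives the call with TL1A; circles also match TCACGTG on either strand, and diamonds (Ctsl and Atg5) do not. Atg7 was not tested. Genes that rose, fell and did not pass all appear, and most E-boxes lie within the last 150 bases before the start.

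Among the lysosomal proteases, 3 of 8 rose (37.5%, against 20.6% of all genes), 4 fell (50%, against 21.7%) and 1 did not pass. Ctsz, which encodes the carboxypeptidase cathepsin Z, had 291.8 and 279.6 CPM in medium against 814.6 and 790.9 CPM with TL1A. It rose 2.81-fold (log2 fold change 1.49, SE 0.07, edgeR adjusted p = 3.37e-06), and the groups lay far apart. Ctsd, the gene of the aspartic protease cathepsin D, had 688.1 and 747.3 CPM in medium against 1159.9 and 1096.7 CPM with TL1A (log2 fold change 0.65, SE 0.07, adjusted p = 0.000282). Ctsc encodes a dipeptidyl peptidase that activates granule serine proteases. Its 248.8 and 245.7 CPM in medium became 359.5 and 353.9 CPM with TL1A (log2 fold change 0.53, SE 0.07, adjusted p = 0.000691).

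The other cathepsins went the other way. Ctsl, which encodes the endopeptidase cathepsin L, had 150.4 and 158.4 CPM in medium against 81.8 and 63.1 CPM with TL1A. It fell by 1.09 on the log2 scale (SE 0.13, adjusted p = 0.00052). Ctsb, the gene of cathepsin B, had 1415 and 1494 CPM in medium against 1128 and 1070 CPM with TL1A, and fell by 0.40 (SE 0.06, adjusted p = 0.00191). Ctsh, the gene of the aminopeptidase cathepsin H, had 396.7 and 377.6 CPM in medium against 280.4 and 325.1 CPM with TL1A. It fell by 0.35 (SE 0.09, adjusted p = 0.0151), a call lost without TL1A replicate 1 (log2 fold change -0.25, adjusted p = 0.114). Lgmn, which encodes the asparaginyl endopeptidase legumain, did not pass (log2 fold change -0.17, SE 0.15, adjusted p = 0.402).

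Ctsa, the gene of a carboxypeptidase that protects some lysosomal glycosidases, was measured on few reads, 34 and 25 in medium against 1 and 5 with TL1A. All of the Ctsa reads lay in 1 of its 2 rows. Its log2 fold change was -3.05 (SE 0.67, adjusted p = 0.00922). Leaving out TL1A replicate 1 gave -2.38, and leaving out replicate 2 gave -4.47. Ctsa had passed the filter through its medium libraries alone.

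Ratios within a library set the cathepsins side by side free of scaling. For each Ctsb read there were 0.206 and 0.187 Ctsz reads in medium against 0.722 and 0.739 with TL1A. Ctsd reads went from 0.486 and 0.5004 per Ctsb read to 1.03 and 1.03, and Ctsc reads from 0.176 and 0.164 to 0.319 and 0.331. Ctsl reads were 0.106 and 0.106 per Ctsb read in medium against 0.0725 and 0.0590 with TL1A. Of these 5 ratios to Ctsb, only that of Ctsh overlapped between the groups, with 0.280 and 0.253 in medium against 0.249 and 0.304 with TL1A. With 2 libraries a group, the smallest p of an exact permutation test is 0.333, so these ratios are given without a test. They come from the same counts as the calls and are no further support for them. Per kilobase of transcript, Ctsd stood highest of the single-row cathepsins in medium, at 337 ± 19.7 CPM per kilobase (SD, n = 2), followed by Ctsb at 307 ± 11.7. With TL1A, Ctsz and Ctsd were highest, at 557 ± 11.6 and 530.5 ± 21, a gap similar in size to their SDs. Of the 50-base stretches of the Ctsd transcript, 36.6% also occurred in transcripts of other genes, most often Gm49369. The share for Ctsb was 15.4%, most often with Fdft1, so the levels of these 2 genes are uncertain.

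**Figure D3:**
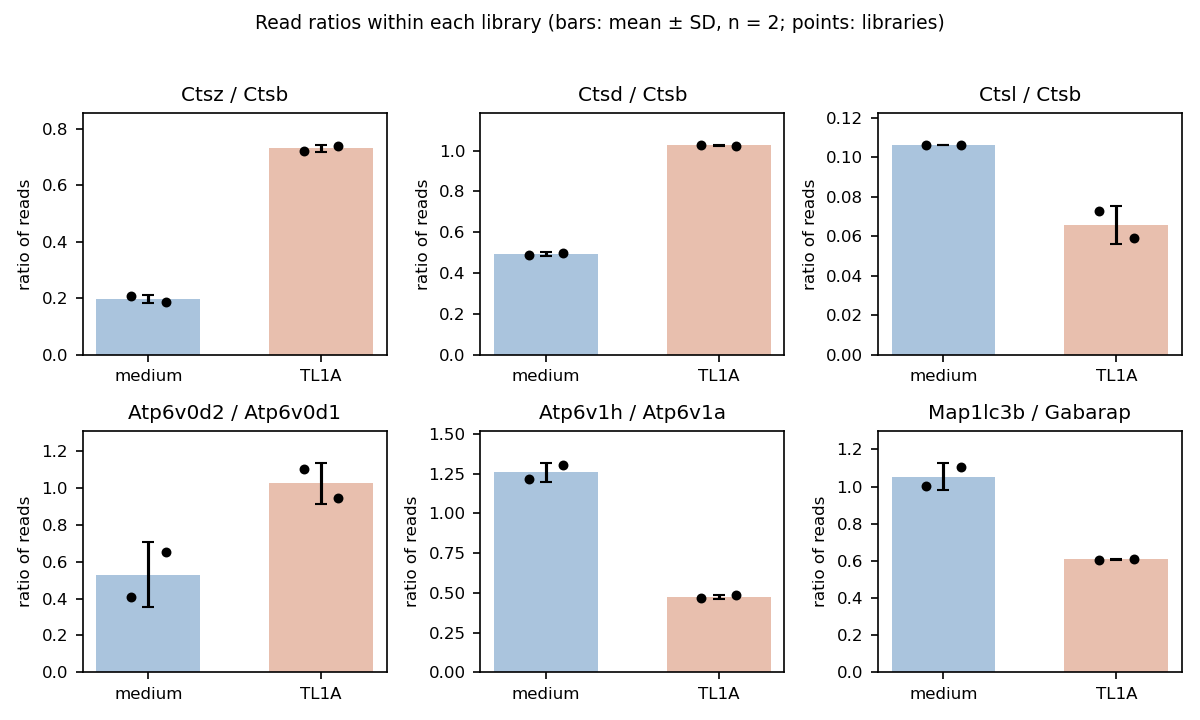
Ratio of the reads of 2 genes within each library (y axis, starting at 0) in medium and TL1A; bars are the mean ± SD of 2 libraries and points the libraries. In all 6 panels the groups do not overlap: Ctsz and Ctsd gained on Ctsb and Atp6v0d2 on Atp6v0d1, while Ctsl, Atp6v1h and Map1lc3b lost ground to Ctsb, Atp6v1a and Gabarap. The ratios use the same counts as the calls, so this separation is no further support for them. Single genes also did not overlap in 72.2% of those tested. The ratio of Ctsh to Ctsb, whose groups overlapped, is not shown.

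Glycan and lipid degrading genes were lower where they passed. Of 6 tested, 2 fell (33.3%, against 21.7% of all genes), none rose (0 also under DESeq2 and at an unadjusted p under 0.05) and 4 did not pass. Hexa, which encodes the alpha chain of beta-hexosaminidase, had 54.7 and 31.1 CPM in medium against 9.95 and 15.1 CPM with TL1A. It fell by 1.77 on the log2 scale (SE 0.31, adjusted p = 0.00306). The libraries within a group lay well apart, but the groups did not overlap. Of the 50-base stretches of Hexa, 10.6% also occurred in transcripts of other genes, most often Tmem202. Glb1, the beta-galactosidase gene, has 3 deposited rows, and reads shared by rows were not counted. The gene had 9.16 and 9.06 CPM in medium against 5.21 and 5.35 CPM with TL1A. It fell by 0.79 (SE 0.23, adjusted p = 0.0264). This call was lost without each single library in turn, with adjusted p = 0.0772 and 0.0844 without medium replicates 1 and 2 and adjusted p = 0.0989 and 0.0911 without TL1A replicates 1 and 2, and it was lost with DESeq2 (adjusted p = 0.138).

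Gusb, the beta-glucuronidase gene, had 135.8 and 101.1 CPM in medium against 67.3 and 101.4 CPM with TL1A, so its groups overlapped (log2 fold change -0.49, SE 0.21, adjusted p = 0.101). It passed as lower without medium replicate 2 (-0.66, adjusted p = 0.0382), without TL1A replicate 2 (-0.81, adjusted p = 0.0153), with no filter on low counts (adjusted p = 0.0195) and with DESeq2 (adjusted p = 0.0389). Gaa, the acid alpha-glucosidase gene, had 23 and 21 reads in medium against 12 and 7 with TL1A (log2 fold change -0.98, SE 0.51, adjusted p = 0.164). It too passed the filter through medium alone. Asah1, the acid ceramidase gene (log2 fold change 0.08, SE 0.09), and Gla, the alpha-galactosidase gene (-0.06, SE 0.15), differed by less than 1 SE. Psap, which encodes the precursor of the sphingolipid activator proteins, had only 2 to 4 reads in a library over its 6 rows and was not measured.

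Of the 4 membrane genes, 2 fell (50%, against 21.7% of all genes) and 2 did not pass. Without medium replicate 2 the count that fell was 0, and it was 1 with either of the TL1A libraries left out. Lamp1 had 146.4 and 167.2 CPM in medium against 120.9 and 112.9 CPM with TL1A, and fell by 0.42 (SE 0.10, adjusted p = 0.0118). The call was lost without medium replicate 2 (log2 fold change -0.30, adjusted p = 0.059) and without TL1A replicate 2 (-0.38, adjusted p = 0.071). Lamp2, which encodes the related glycoprotein with a part in a selective form of autophagy, had 203.3 and 209.6 CPM in medium against 160.1 and 174.9 CPM with TL1A. It fell by 0.30 (SE 0.08, adjusted p = 0.022), and this call was lost without medium replicate 2 (adjusted p = 0.0844) and without TL1A replicate 1 (adjusted p = 0.153). Mcoln1, the gene of the lysosomal calcium channel TRPML1, had 14.5 and 18.7 CPM in medium against 11.7 and 11.2 CPM with TL1A. It did not pass (log2 fold change -0.54, SE 0.20, adjusted p = 0.0654), but did so without medium replicate 1 (-0.72, adjusted p = 0.0346). Scarb2, which encodes the membrane receptor LIMP-2, had 11.9 and 11.7 CPM in medium against 14.1 and 10.9 CPM with TL1A, and its groups overlapped.

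Lamp2 was the only one of the 58 genes with more than 1 row passing the filter, and its rows kept their shares. Row NM_010685 held 76.9% and 76.4% of the gene's reads in medium against 77% and 77.5% with TL1A. Row NM_001017959 held 22.4% and 23% in medium against 21.8% and 21.9% with TL1A, and NM_001290485 held at most 1.16%. Tested alone, NM_010685 fell by 0.29 (SE 0.09, adjusted p = 0.0339), where 41.8% of 10100 rows passed. That call was lost without each single library in turn (adjusted p = 0.0535 to 0.211). NM_001017959 did not pass (log2 fold change -0.35, SE 0.13, adjusted p = 0.0588). Unequal change of the rows was not found (edgeR diffSpliceDGE, adjusted p = 0.746), where 4.48% of 268 genes passed.

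Of 14 tested V-ATPase subunit genes, 3 were higher (21.4%, against 20.6% of all genes), 2 lower (14.3%, against 21.7%) and 9 did not pass. With total-count scaling 6 were lower, and 1 was with DESeq2, with RLE factors and without medium replicate 2 or TL1A replicate 2. The share of all genes that fell with total-count scaling was 35.3%, against 42.9% of these subunit genes. Of the 24 symbols, 10 were not tested. In the V1 sector, Atp6v1a, the catalytic subunit A, had 216.6 and 213.2 CPM in medium against 317.4 and 299.2 CPM with TL1A. It rose by 0.52 on the log2 scale (SE 0.07, adjusted p = 0.00107). Atp6v1h, the regulatory subunit H, had 263.6 and 277.6 CPM in medium against 148 and 145.3 CPM with TL1A, and fell by 0.88 (SE 0.08, adjusted p = 9.3e-05). These 2 subunits of the same sector moved apart, from 1.22 and 1.30 Atp6v1h reads per Atp6v1a read in medium to 0.466 and 0.486 with TL1A.

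The rotor subunit gene Atp6v1d fell by 0.24 (SE 0.07, adjusted p = 0.031), from 244.3 and 253.6 CPM to 212.8 and 208.4 CPM. Its call was lost with RLE factors (adjusted p = 0.0613), with DESeq2 (adjusted p = 0.0819), without medium replicate 2 (adjusted p = 0.118), and without TL1A replicate 1 (0.122) or 2 (0.162). Atp6v1c1, of the peripheral stalk, had groups that did not overlap, 238.3 and 230.9 CPM against 207.6 and 196.7 CPM, and did not pass (log2 fold change -0.21, SE 0.07, adjusted p = 0.054). It passed in a fit of single-row genes (adjusted p = 0.0466). The nucleotide-binding subunit gene Atp6v1b2 had 95.4 and 58.4 CPM in medium against 54.9 and 77.9 CPM with TL1A, a spread within groups that covered the difference. Atp6v1e1, Atp6v1f and Atp6v1g1, stalk subunits, had log2 fold changes of 0.15, -0.19 and 0.01 and did not pass. Atp6v1g2, an isoform of subunit G best known from neurons, had 382 and 395 reads in medium against 296 and 207 with TL1A. Its log2 fold change was -0.41 (adjusted p = 0.167), and it passed without TL1A replicate 1 (-0.75, adjusted p = 0.0263).

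In the V0 sector the isoforms of subunit d, which joins the rotor to the proton ring, were both counted. Atp6v0d2, the isoform known from osteoclasts and macrophages, had 27.1 and 32.6 CPM in medium against 51.8 and 50.01 CPM with TL1A. It rose 1.71-fold (log2 fold change 0.77, SE 0.14, adjusted p = 0.00399). The widely expressed isoform Atp6v0d1 had 66.7 and 49.9 CPM in medium against 47 and 52.9 CPM with TL1A and did not pass (log2 fold change -0.22, SE 0.16, adjusted p = 0.313). For each Atp6v0d1 read there were 0.406 and 0.653 Atp6v0d2 reads in medium against 1.10 and 0.945 with TL1A, and the groups did not overlap. Per kilobase of transcript, Atp6v0d2 stood at 11.7 ± 1.53 CPM per kilobase in medium and 20.05 ± 0.501 with TL1A, and Atp6v0d1 at 35.8 ± 7.28 and 30.7 ± 2.59 (SD, n = 2). Atp6v0d2 thus remained the lower isoform in both conditions on this scale.

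Atp6v0e, a small membrane subunit, had 383.6 and 428.6 CPM in medium against 522.1 and 485.1 CPM with TL1A. It rose by 0.31 (SE 0.08, adjusted p = 0.0179), but not with total-count scaling (log2 fold change 0.05, adjusted p = 0.613) nor without TL1A replicate 1 (0.26, adjusted p = 0.123). Its isoform gene Atp6v0e2 had 2 and 1 reads in medium against none with TL1A. Atp6v0a2, of the proton channel, and Atp6v0b, of the proteolipid ring, differed by less than 1 SE (log2 fold changes 0.05 and 0.03). Atp6v0c, the main proteolipid of the ring, had a single read, in TL1A replicate 2. Of its 50-base stretches, 32.5% occurred in transcripts of other genes, most often in its copy Atp6v0c-ps2, which had no read. Whether such copies account for the missing reads was not tested. Atp6v0a1, with 4 deposited rows, had no read. Tcirg1, which encodes the subunit a isoform known from immune cells and osteoclasts, was counted outside the Atp6v symbols. It had only 6 and 16 reads in medium against 7 and 7 with TL1A, over 3 deposited rows. Reads shared by rows were not counted, so the low counts of Atp6v0a1 and Tcirg1 need not reflect their levels. The remaining symbols Atp6v0a4, Atp6v1b1, Atp6v1c2, Atp6v1fnb and Atp6v1g3 had no read, and Atp6v1e2 had 2 in 1 medium library. Of these symbols, Atp6v1c2 has 2 deposited rows, and the same limit holds for it. Several of the remaining symbols are isoforms of specialised epithelia or testis.

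**Figure D4:**
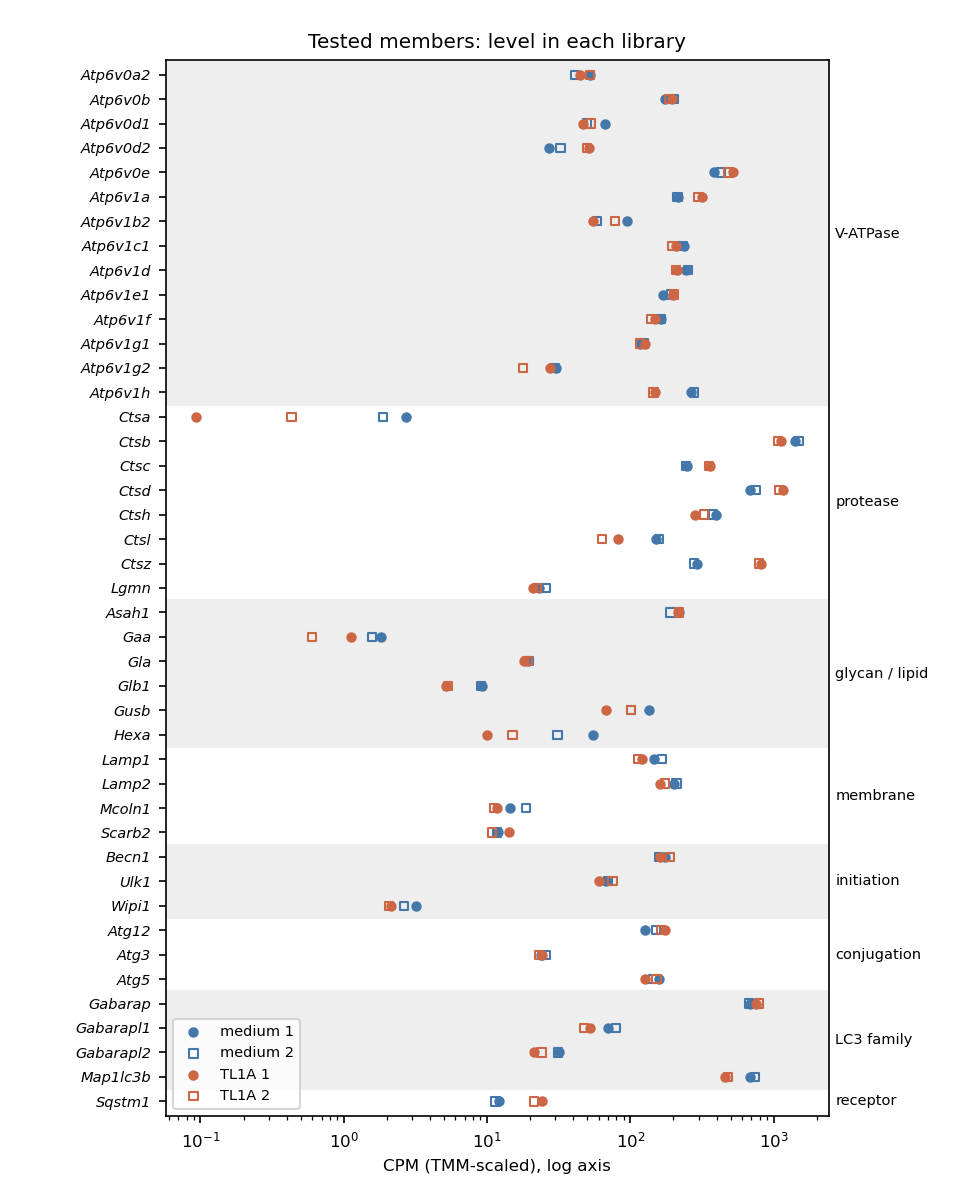
Level of each tested gene in each library (x axis, TMM-scaled CPM on a log axis), grouped by role (y axis). Ctsz, Ctsd, Atp6v1a, Atp6v0d2 and Sqstm1 have both TL1A points (orange) to the right of both medium points (blue), and Ctsl, Atp6v1h, Hexa and Map1lc3b have them to the left.

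In the LC3 and GABARAP family, whose proteins are joined to the lipid of autophagosome membranes, 3 of 4 tested genes fell (75%, against 21.7% of all genes) and 1 rose (25%, against 20.6%). Map1lc3b, the gene of LC3B, had 683.5 and 742.6 CPM in medium against 461.1 and 482.7 CPM with TL1A. It fell by 0.60 on the log2 scale (SE 0.07, adjusted p = 0.000497). Gabarapl1 had 70.4 and 79.8 CPM in medium against 52.2 and 47.7 CPM with TL1A, and fell by 0.59 (SE 0.12, adjusted p = 0.00655). Gabarapl2 had 31.9 and 31.2 CPM in medium against 21.4 and 24 CPM with TL1A, and fell by 0.47 (SE 0.14, adjusted p = 0.0324). The call for Gabarapl2 was lost without each single library, with adjusted p = 0.0884 and 0.0847 without medium replicates 1 and 2 and 0.161 and 0.0687 without TL1A replicates 1 and 2, and with DESeq2 (0.0979).

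Gabarap itself had 682.6 and 670.8 CPM in medium against 759 and 791.7 CPM with TL1A. It rose by only 0.20 (SE 0.06, adjusted p = 0.0389), and its sign turned with total-count scaling (-0.062, adjusted p = 0.443). Its call was also lost without medium replicate 1 (adjusted p = 0.0518) and without TL1A replicate 1 (0.117) or 2 (0.236). The family's balance moved in any scaling. Map1lc3b reads per Gabarap read went from 1.001 and 1.11 in medium to 0.608 and 0.61 with TL1A. Gabarapl1 reads went from 0.103 and 0.119 per Gabarap read to 0.0687 and 0.0602, and Gabarapl2 reads from 0.0468 and 0.0464 to 0.0282 and 0.0303. Per kilobase of transcript the order was the same in both conditions and the levels of neighbours did not overlap: Gabarap (501 ± 6.22 CPM per kilobase in medium, 574 ± 17.1 with TL1A), Map1lc3b (282 ± 16.5 and 186 ± 6.03), Gabarapl1 (41.3 ± 3.67 and 27.4 ± 1.75) and Gabarapl2 (18.8 ± 0.326 and 13.5 ± 1.09). Sequence shared with other annotated genes made up 13.8% of the 50-base stretches of Map1lc3b, 17% of those of Gabarapl2 and 18.6% of those of Gabarapl1. Map1lc3a had 1 read in medium against 2 with TL1A over its 2 rows.

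Sqstm1, which encodes the receptor p62 that carries ubiquitin-tagged cargo into autophagosomes, had 153 and 153 reads in medium against 259 and 246 with TL1A, or 12.2 and 11.5 CPM against 24.1 and 21.2 CPM. It rose 1.92-fold (log2 fold change 0.94, SE 0.17, adjusted p = 0.00369). All reads lay in 1 of its 2 rows, of which 9.9% of the 50-base stretches were in no other row, so the counts come from a small part of the gene. Sqstm1 reads per Map1lc3b read went from 0.0178 and 0.0154 in medium to 0.0522 and 0.0439 with TL1A.

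Of the 6 other autophagy genes tested, 0 passed with edgeR, against 42.3% of all genes in either direction. Only 1 of the 6, Atg12, was under 0.05 before adjustment, and it passed with DESeq2. Atg12, the gene of a ubiquitin-like protein of the conjugation machinery, had 126.4 and 150.8 CPM in medium against 174.5 and 163 CPM with TL1A (log2 fold change 0.28, SE 0.11, adjusted p = 0.0674). It passed without medium replicate 2 (0.44, adjusted p = 0.0106), with no filter on low counts (adjusted p = 0.041) and with DESeq2 (0.31, adjusted p = 0.0476). Atg5, the partner of ATG12, and Atg3, the enzyme gene that loads LC3 onto lipid, had overlapping groups (log2 fold changes -0.12 and -0.07). The same held for the kinase gene Ulk1 and for Becn1, which encodes a subunit of the autophagy lipid kinase (-0.02 and 0.07). Of the 50-base stretches of Becn1, 45.7% also occurred in other genes, most often Cntd1, so its level is uncertain. Wipi1, which encodes a protein that binds the lipid made by that kinase, had 40 and 35 reads in medium against 23 and 24 with TL1A (-0.46, SE 0.36, adjusted p = 0.342). Atg7 had 3 to 8 reads in a library over 3 rows and was not tested.

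Other genes of these pathways, taken from 7 lists of 181 genes, were lower more often than higher. Of 140 tested, 15 rose (10.7%, against 20.6% of all genes) and 54 fell (38.6%, against 21.7%), with a median log2 fold change of -0.27. Other lysosomal enzymes had the lowest median of the 7 lists, -0.64, with 20 of 34 lower (58.8%, against 21.7% of all genes) and 2 higher (5.88%, against 20.6%). Sgsh, the heparan sulfamidase gene, had 1102 and 1342 reads in medium against 35 and 32 with TL1A (log2 fold change -4.97, SE 0.17, adjusted p = 1.07e-06). The aspartic protease gene Ctse fell by 2.60 (SE 0.22). Idua, the alpha-iduronidase gene, fell by 1.49 (SE 0.42, adjusted p = 0.025), a call lost without medium replicate 2 (adjusted p = 0.128), without TL1A replicate 2 (0.121) and with DESeq2 (0.0885). Hyal2, a hyaluronidase gene, rose by 0.83 (SE 0.11).

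Genes of lysosomal membrane transport and delivery were divided. Of 24 tested, 7 rose (29.2%, against 20.6% of all genes) and 11 fell (45.8%, against 21.7%). Without TL1A replicate 1, 7 fell. M6pr, the gene of the mannose 6-phosphate receptor that carries new enzymes towards lysosomes, rose from 526 ± 19.1 to 1580 ± 44.8 CPM. Slc15a3, a lysosomal peptide transporter gene, rose 4.57-fold (log2 fold change 2.19, SE 0.07), and Slc11a1, the metal transporter gene of phagosomes, rose 2.56-fold (log2 fold change 1.36, SE 0.13). Cln3, whose loss is known in a lysosomal storage disease, fell by 1.56 on the log2 scale (SE 0.18). Laptm4b fell by 0.94 (SE 0.13) and the iron transporter gene Slc11a2 by 0.88 (SE 0.11).

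The V-ATPase accessory and assembly list had 1 of 9 tested genes higher (11.1%, against 20.6% of all genes) and 3 lower (33.3%, against 21.7%). Without medium replicate 2 or TL1A replicate 1 there was 1 lower gene, and without TL1A replicate 2 there were 0. Its accessory subunit genes went in opposite directions. Atp6ap1 rose by 0.34 (SE 0.07, adjusted p = 0.00688), a call lost with total-count scaling (0.09, adjusted p = 0.329) and without TL1A replicate 1 (adjusted p = 0.0658). Atp6ap2 fell by 0.42 (SE 0.10, adjusted p = 0.0108), a call lost without TL1A replicate 2 (adjusted p = 0.0746). Rogdi fell by 0.43 (adjusted p = 0.0293), with adjusted p = 0.146 without medium replicate 2, 0.0581 without TL1A replicate 1 and 0.156 without TL1A replicate 2. Vma21, an assembly chaperone gene, had 17 and 21 reads in medium against 5 and 5 with TL1A. It reached the minimum count in medium only, so it could be called only lower. Its call (adjusted p = 0.0411) was lost without each single library (adjusted p = 0.101 to 0.159), with DESeq2 (0.256) and with no filter on low counts (0.0766).

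Of the genes of lysosomal nutrient sensing and TFEB control, 2 of 25 tested rose (8%, against 20.6% of all genes) and 5 fell (20%, against 21.7%). With total-count scaling 11 fell (44%, against 35.3% of all genes on that scale). The 2 that rose belong to the kinase complex mTORC1, which is recruited to lysosomes and holds TFEB in the cytoplasm. Rptor, the gene of its scaffold raptor, had 64.5 and 66.8 CPM in medium against 423.7 and 414.3 CPM with TL1A, a 6.38-fold rise (log2 fold change 2.67, SE 0.08, adjusted p = 4.98e-07). Mtor, the kinase gene, rose by 0.56 (SE 0.10, adjusted p = 0.00312). Lamtor4, which encodes part of the complex that anchors this kinase on lysosomes, fell by 1.19 (SE 0.11), and Sesn1, a nutrient sensor gene, by 1.02 (SE 0.16). Rragb, a gene of the GTPases of the same anchor, had 29 and 49 reads in medium against 1 and 6 with TL1A (log2 fold change -3.22, SE 0.67, -2.51 without TL1A replicate 1 and -4.86 without TL1A replicate 2). It too reached the minimum count in medium only and could be called only lower.

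Of 22 other autophagy initiation and elongation genes tested, 1 rose (4.55%, against 20.6% of all genes) and 3 fell (13.6%, against 21.7%). With total-count scaling 8 fell (36.4%), close to the 35.3% of all genes on that scale. Vmp1, which encodes a membrane protein needed for autophagosome formation, rose from 456 ± 5.45 to 640.1 ± 11.9 CPM. Atg10, which encodes a conjugating enzyme for ATG12, fell by 0.80 (SE 0.14). Atg14 and Pik3c3, of the autophagy lipid kinase complex, fell by 0.45 (SE 0.10) and 0.35 (SE 0.08), and both calls were lost without TL1A replicate 1 (adjusted p = 0.0567 and 0.108).

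Receptor and mitophagy genes had 5 of 12 lower (41.7%, against 21.7% of all genes) and 1 higher (8.33%, against 20.6%). With total-count scaling 8 were lower and 0 higher, and without TL1A replicate 1, 3 were lower and 0 higher. The shares of all genes with total-count scaling were 35.3% lower and 13.3% higher, against 66.7% and 0% for this list. The mitophagy genes Bnip3 and Pink1 fell by 0.90 (SE 0.14) and 0.83 (SE 0.13), and Calcoco1 by 0.73 (SE 0.08). Bcl2l13 rose by 0.34 (adjusted p = 0.0334), but not with total-count scaling (adjusted p = 0.57), nor without medium replicate 1 (0.107) or TL1A replicates 1 and 2 (0.0672 and 0.193). Of the fusion genes, 7 of 14 fell (50%, against 21.7% of all genes) and 1 rose (7.14%, against 20.6%). Without TL1A replicate 2, 3 fell. Ykt6, a SNARE gene, rose by 1.12 (SE 0.21), while the SNARE genes Snap29 and Stx17 fell by 0.67 (SE 0.14) and 0.43 (SE 0.12). The Stx17 call was lost without each single library (adjusted p = 0.0613 to 0.13) and with DESeq2 (0.0514). Tecpr1, a tether gene of this step, fell by 0.60 (SE 0.08).

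**Figure D5:**
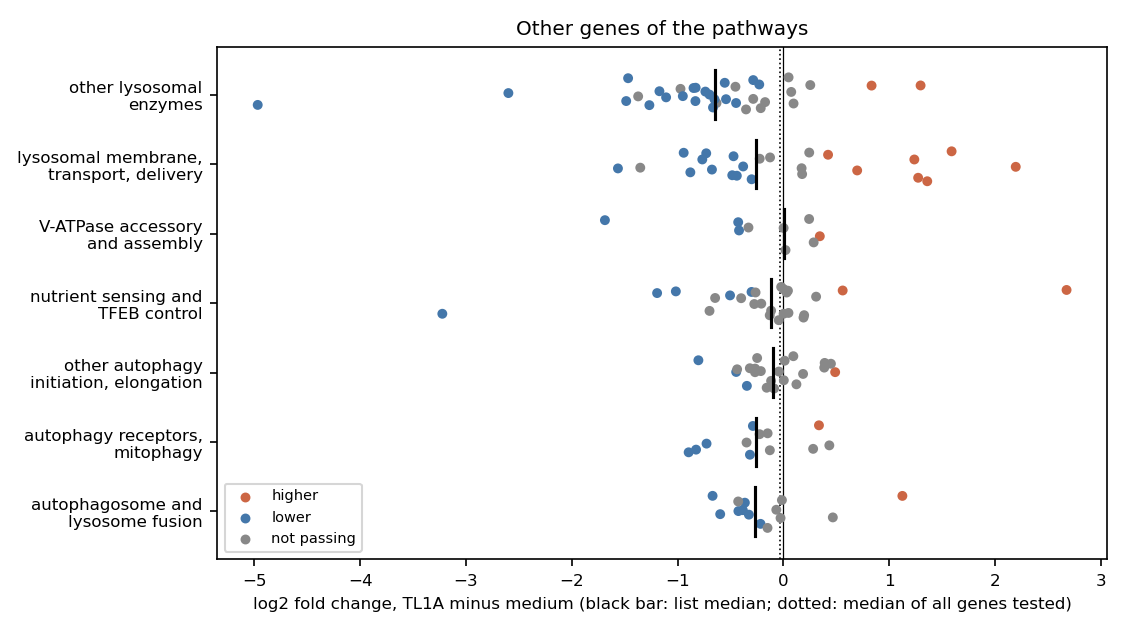
Log2 fold change, TL1A minus medium (x axis), of the 140 other tested pathway genes by list (y axis). Points are genes coloured by call, black bars list medians and the dotted line the median of all genes tested (-0.03). The other lysosomal enzymes have the lowest median, -0.64, and Sgsh is the point furthest left at -4.97.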

How the data were processed

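The deposited table holds raw read counts for RefSeq transcript accessions, per the file headers. CASAVA, STAR and HTSeq on genome build mm9 are named, per the submitters' processing notes. The annotation and the strand setting of the counting are not stated there. The cDNA was made with a SMARTer Ultra Low Input kit, per the labels' protocols. The 5 HTSeq summary rows, 69.9% to 71.3% of a column's total, name no gene and were left out. Reads ambiguous between rows (33.7% to 34% of assigned plus ambiguous reads) were not counted, so genes with several rows (12 of the 58) or near-identical copies are undercounted, and overlapping genes cannot be told apart.

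Of 33535 rows, 33154 matched a symbol in a RefSeq table of GRCm38.p6, used for names and promoters only. Rows were summed per gene. Counts were tested with edgeR 4.0.16 in R 4.3.3 (TMM, filterByExpr with a minimum count of 10, glmQLFTest, two-sided, Benjamini-Hochberg over 9852 genes) after the code was checked on simulated data. SE is the log2 fold change divided by the square root of F. Lengths and 50-base stretches came from GENCODE M21. Alternatives were RLE factors, DESeq2 1.42.0, no filter, single-row genes, each library left out, the replicate number as a term and, added later, total-count scaling and crossed numbers. Members and lists were chosen with earlier results of these data known. Every member is accounted for. Those that passed with at least 2-fold, Tfeb, Tfe3, the LC3 family and V-ATPase isoforms are given in full, and of each other list up to 3 passing genes in each direction (largest change, mean of at least 10 counts). A planned comparison of protein sequences was not made. Of the results, 1 gene that the rule would name and 1 marker gene are not reported here.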

Additional observations from a re-analysis of the deposited data

How the results depend on the processing

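With total-count scaling 1310 genes rose and 3475 fell over all genes (2027 and 2141 with TMM), and 20 of the 43 tested members fell against 13. For all genes, for the members and for the other pathway genes together, the other counts of calls stayed within 1.5 times those of the main test. Counts of single lists are small and moved further, as given with them. Leaving out 1 library gave 1509 to 1940 higher and 1530 to 1837 lower genes, 6 to 9 higher and 9 to 12 lower members, 11 to 17 higher and 38 to 49 lower other pathway genes, and 0 genes with unequal rows. The titles share replicate numbers but do not say what these stand for, so the main test did not take them as pairs. Same-numbered libraries deviated from their group means with a correlation of -0.105. With 2 libraries a group, this cannot show whether they share a source. With the replicate number as a block, 1736 genes rose and 1806 fell, 6 members rose and 9 fell, and 13 and 44 other pathway genes did; the block ended the calls of Atp6v0e, Atp6v1d, Lamp2, Glb1, Gabarap and Gabarapl2 among members. With crossed numbers 2295 genes rose and 2439 fell, and 9 and 16 members. The sign turned for 1 member that had passed, Gabarap (-0.062 with total-count scaling), and otherwise only for genes or rows that had not passed. The cause was not tested. With total-count scaling these were Atp6v0a2 (-0.206), Atp6v0b (-0.231), Atp6v1e1 (-0.113), Atp6v1g1 (-0.243), Asah1 (-0.18), Scarb2 (-0.179) and Becn1 (-0.184), and Ulk1 was at 0.008 with RLE factors and with DESeq2. With 1 library left out, the log2 fold changes that turned ranged from -0.093 to 0.236 for Atp6v0a2, -0.08 to 0.16 for Atp6v0b, -0.494 to 0.179 for Atp6v1b2, -0.05 to 0.094 for Atp6v1g1, -0.121 to 0.259 for Scarb2, -0.136 to 0.023 for Atg3, -0.262 to 0.015 for Atg5, -0.055 to 0.191 for Becn1, -0.174 to 0.126 for Ulk1 and -0.339 to 0.5 for the Lamp2 row NM_001290485. Members with 26 or fewer reads over all libraries were not tested, and at this depth nothing can be said of their change.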
